A study of Mus musculus with 4 samples.

Results

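The *Prph*/*Slc5a7* cluster, named by the authors for these 2 genes, held the cholinergic motor neurons in single-nucleus RNA sequencing of the mouse posterior hindbrain. Its members were the nuclei that passed the authors' quality filter and carried this cluster name in the deposited table of nuclei. They numbered 82 of 12539 neurons (0.654%) and of 39461 nuclei kept in all. The clusters had been built on gene expression, so levels in this motor neuron cluster against other neurons are given as a description with no test.

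The tissue was a block holding the area postrema and the nucleus tractus solitarius, which receive signals from the gut and the blood. Both groups of C57BL/6 mice, 12 to 20 weeks old and of both sexes, received the designer ligand clozapine *N*-oxide (CNO) at 3 mg per kg, and tissue was taken after 1 h. AgRP-Gq;POMC-Gi mice carried the drivers AgRP-IRES-Cre+/- and POMC-Dre+/- and the receptor alleles hM3DGqfl/- and hM4DGifl/-. In them, CNO acts on an excitatory receptor switched on by Cre in AgRP neurons and on an inhibitory receptor switched on by Dre in POMC neurons, both driven by the CAG promoter. Control mice were labelled WT. The methods describe controls as lacking both recombinases, so that neither receptor was expressed, and give all offspring a copy of both receptor alleles. Each group had 2 libraries, from a pool of 2 mice per group by the labels. Whether each library held a separate mouse was not stated, so p-values rest on the spread between these libraries, which for the controls may be technical.

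In the brainstem, motor neurons are the neurons whose axons leave the central nervous system, and they use acetylcholine. In the caudal hindbrain they include visceral motor neurons of the dorsal motor nucleus of the vagus, which sends parasympathetic fibres to the gut, branchial motor neurons of the nucleus ambiguus, which drive the larynx and pharynx, and somatic motor neurons of the hypoglossal nucleus, which move the tongue. All make acetylcholine with choline acetyltransferase (*Chat*) and take choline back up through *Slc5a7*. Peripherin (*Prph*) is an intermediate filament protein of neurons that project out of the central nervous system. *Tbx20* is a transcription factor of visceral and branchial motor neurons, and *Mnx1* and *Isl2* of somatic ones.

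The 4 libraries gave 9 and 17 nuclei in control replicates 1 and 2, and 24 and 32 nuclei in AgRP-Gq;POMC-Gi replicates 1 and 2. Their summed unique molecular identifiers (UMIs, each counting 1 captured RNA molecule) were 127635, 213095, 462754 and 445400 in the same order. The largest nucleus of each library held 39581, 29980, 44145 and 33110 of these UMIs. A nucleus of the motor neuron cluster held a median of 14832.5 UMIs and 4463.5 genes, against 8682 UMIs and 3561 genes in other neurons, and ranked 5 of 134 neuronal clusters by median UMIs. No barcode of the cluster was shared between libraries within the cluster, and 1 of control replicate 1 was also a kept barcode of AgRP-Gq;POMC-Gi replicate 1. *Xist*, expressed from the inactive X of females, was at 337, 221 and 549 CPM (UMIs of the gene per 1e6 UMIs of the cluster in a library) in the first 3 libraries and at 0 in AgRP-Gq;POMC-Gi replicate 2, where Y-linked genes had 205 UMIs against 26 to 65 elsewhere. The 2 AgRP-Gq;POMC-Gi libraries therefore did not hold the same mixture of mice, and sex was not matched between the 4 libraries. The control libraries also differed in opposite directions. In other neurons of control replicates 1 and 2, *Xist* was at 507 and 319 CPM and the Y-linked gene *Uty* at 56.6 and 82.0 CPM.

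The markers of the label were present in every library. *Prph* (chromosome 15, 99055174 to 99058978, plus strand, GRCm38) was at 235 and 253 CPM in control replicates 1 and 2, and at 233 and 290 CPM in AgRP-Gq;POMC-Gi replicates 1 and 2. Its mean was 253 ± 26.1 CPM (SD, n = 4 libraries) against 2.07 ± 0.625 CPM in other neurons. *Slc5a7* (chromosome 17, 54273590 to 54299034, minus strand) was at 329, 230, 294 and 276 CPM in the same order, against a mean of 6.93 CPM in other neurons. *Chat* (chromosome 14, 32408203 to 32465989, minus strand) was at 204, 178, 127 and 146 CPM, against 3.80 CPM in other neurons. The lowest library of the motor neuron cluster was far above other neurons for each of the 3 genes.

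A UMI of *Prph* was present in 79.3% of the 82 nuclei, of *Slc5a7* in 80.5% and of *Chat* in 75.6%. The shares in oligodendrocytes, which should lack these genes, were 0.874%, 0.654% and 0.238% at a median of 2460 UMIs per nucleus, against 14832.5 UMIs here. In mean CPM, the motor neuron cluster ranked 1 of 134 neuronal clusters for all 3 genes, also without each library in turn. Nuclei were also thinned to 2000 UMIs, which left out 166 neurons with fewer UMIs, 4 of them in the cluster. After thinning, the cluster also ranked 1 by the percentage of nuclei in which the gene was found (37.2% for *Prph*, 35.9% for *Slc5a7* and 28.2% for *Chat*). The next highest cluster was *Tph2*/*Slc6a4* for *Prph* (12.5 CPM) and *Reln*/*Pou4f1* for *Slc5a7* (98.1 CPM) and *Chat* (54.4 CPM). All 3 markers were found in 48 nuclei, 2 in 22 nuclei, 1 in 5 nuclei and none in 7 nuclei. The 7 nuclei without a marker had a median of 1739 UMIs, against 18511.5 in those with all 3.

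**Figure D1:**
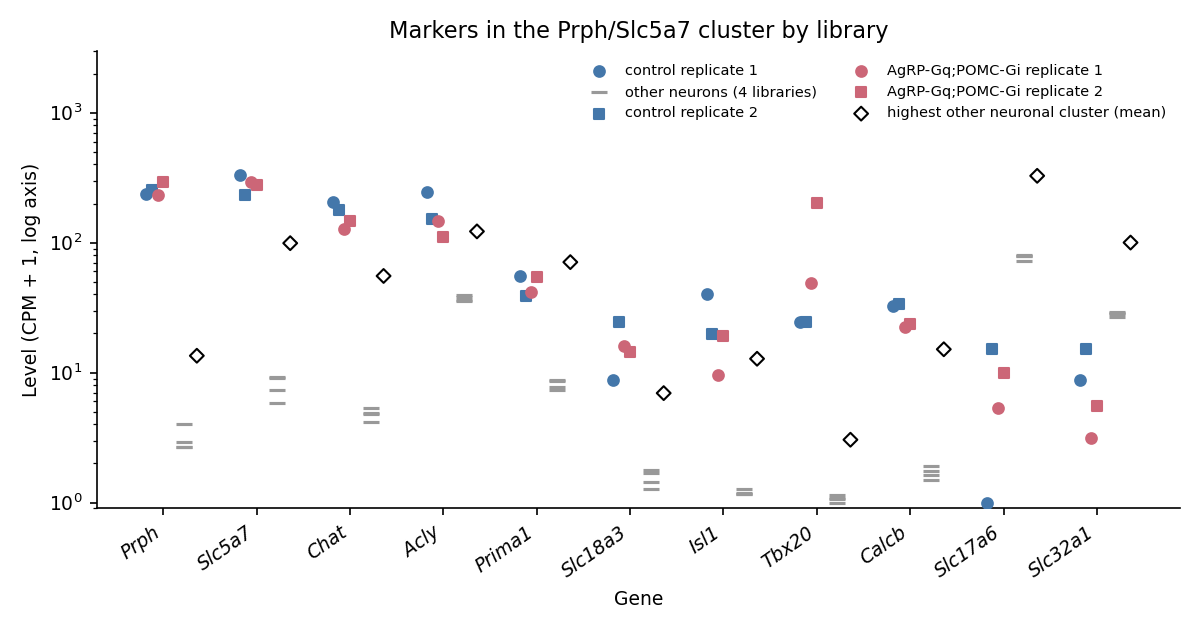
Levels of marker genes in the motor neuron cluster (vertical log axis, CPM + 1) for each library (circles and squares), in other neurons of each library (grey dashes) and in the highest other neuronal cluster (open diamonds, mean of the libraries). *Prph*, *Slc5a7* and *Chat* of all 4 libraries sit above every other neuronal cluster, whereas *Slc17a6* and *Slc32a1* sit below other neurons.

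Of the cholinergic list, 4 of 9 genes ranked first among neuronal clusters, against 1.06% of the 12886 genes detected in 5% or more of its nuclei. Of the 4, *Slc5a7* and *Chat* were already markers of the label, so the count is a description. *Acly*, which makes acetyl-CoA, was at 163 ± 56.6 CPM against 36.5 in other neurons. *Slc18a3*, the vesicular acetylcholine transporter, was at 15.0 ± 6.46 CPM against 0.540. *Slc18a3* lies within *Chat* on the same strand (chromosome 14, 32462438 to 32464850), so reads of the 2 genes may not be fully separable. *Prima1*, the membrane anchor of acetylcholinesterase, ranked 3 (46.8 ± 8.82 CPM), whereas the esterase itself, *Ache*, ranked 83 and was at 39.1 CPM against 42.2 in other neurons. Genes of the other fast transmitters were low. *Slc17a6*, the vesicular glutamate transporter, was at 6.85 CPM against 76.6 in other neurons, and the vesicular GABA transporter *Slc32a1* at 7.14 against 27.3.

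Of 14 transcription factors of motor neurons, 3 ranked first among neuronal clusters and 6 were among the 10 highest. The shares over genes detected in 5% or more of nuclei were 1.06% and 9.89%. Only 1 of the 14 was above other neurons in all 4 libraries, against 11.1% of those genes, and most were found in few nuclei. Their summed level was 799, 657, 501 and 537 CPM in control replicates 1 and 2 and AgRP-Gq;POMC-Gi replicates 1 and 2. Other neurons were at 746, 768, 772 and 671 CPM. *Esrrg*, an orphan nuclear receptor, was found in 67.1% of nuclei at 332 ± 142 CPM, against 485 CPM in other neurons. *Isl1*, a LIM homeobox gene of motor neurons, was at 39.2, 18.8, 8.64 and 18.0 CPM in control replicates 1 and 2 and AgRP-Gq;POMC-Gi replicates 1 and 2, and ranked 1 of 134 clusters. Only 15.9% of nuclei had an *Isl1* UMI. *Mnx1* was found in 4.88% and *Isl2* in 1.22% of nuclei. *Tbx20* was found in 41.5% of nuclei and ranked 1 among neuronal clusters, at 73.6 ± 84.9 CPM against 0.0756 in other neurons. The SD of *Tbx20* was larger than its mean because AgRP-Gq;POMC-Gi replicate 2 was at 200 CPM and the other libraries at 23.5, 23.5 and 47.5 CPM.

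Structural genes of long axons stood high. Of 13 genes of the cytoskeleton and axon list, 10 were above other neurons in all 4 libraries, against 11.1% of all genes tested, and for 10 the cluster was among the 10 highest neuronal clusters, against 9.89% of genes. The neurofilament genes *Nefl* (289 ± 68.6 CPM) and *Nefm* (376 ± 120 CPM) and the microtubule gene *Map1b* (952 ± 127 CPM) each ranked 2 of 134. *Sncg*, gamma-synuclein, was at 95.0 CPM against 9.67 in other neurons. *Gap43*, a growth cone protein, was at 346 CPM against 132. Of 16 genes of the injury and stress list, 7 were above other neurons in all 4 libraries, and *Ecel1*, an endopeptidase, (123 ± 34.0 CPM) and *Hspb1*, a small heat shock protein, (26.7 ± 24.9 CPM) ranked first.

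The 25 genes with the largest ratio to other neurons, of 975 that were above them in all 4 libraries and detected in 25% or more of nuclei, were led by *Tbx20* (log2 ratio 9.93) and *Prph* (6.93). *A4galt*, a glycosphingolipid galactosyltransferase, came next (6.64, 32.7 ± 14.1 CPM), before *Chat* (5.43) and *Slc5a7* (5.35). *Runx1*, a transcription factor (4.99), *Lama2*, a laminin chain (4.75), *Msn*, moesin (4.49), and *Mcam*, a cell adhesion molecule (4.47), followed. *Plscr4* (99.7 CPM), *Lhfpl2* (107 CPM), *Dysf* (106 CPM), a membrane repair protein, and *Slc9b2* (45.6 CPM), a sodium/proton exchanger, also ranked first among neuronal clusters. *Bace2*, *Qrfpr*, *Nr4a2*, *Lgals1*, *Adgb*, 4930447N08Rik, *Pde5a*, *Mill2*, *Gem*, *Neat1*, *Ecel1* and *Angpt1* completed the 25, with log2 ratios of 3.33 to 4.17. *Qrfpr* is the receptor of the neuropeptide QRFP and *Pde5a* a cyclic GMP phosphodiesterase.

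The other clusters with the highest *Chat* were *Reln*/*Pou4f1* (54.4 CPM), *Lama1*/*Sntg2* (36.6 CPM) and *Nr5a2*/*Zfp804b* (26.9 CPM). *Prph* was at 0, 4.49 and 1.13 CPM in these clusters, and *Slc17a6* was at 209, 127 and 132 CPM, against 6.85 CPM in the motor neuron cluster. *Isl1* and *Mnx1* were at 0 in all 3. By Pearson's correlation of log2(CPM + 1) over genes the nearest clusters were *Zfp804b*/*Npas1* (0.900), *Foxp2*/*Il1rapl2* (0.893) and *Mecom*/*Sema3a* (0.893). These correlations run across genes, which are not independent, within the same libraries.

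The motor neuron cluster was not uniform. Nuclei were sorted by detected UMIs of a visceral and branchial motor list (*Phox2a*, *Tbx20*, *Tbx2*, *Tbx3*) and a somatic motor list (*Mnx1*, *Isl2*, *Chodl*, *Bcl6*, *Mmp9*). The visceral list alone was detected in 34 nuclei, the somatic list alone in 13, both in 3 and neither in 32. These are detection classes and not cell types, since a nucleus with few UMIs can miss every marker. The 32 nuclei with neither list had a median of 8301 UMIs, against 17586.5 for visceral-list and 18494 for somatic-list nuclei.

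Genes that did not define the classes differed between them (13 somatic-list and 34 visceral-list nuclei, described with no test). The genes named here were chosen after their values were seen. *Calcb*, a calcitonin gene-related peptide, was found in 76.9% of somatic-list and 0% of visceral-list nuclei. *Calca* was found in 53.8% and 0%, and the VIP receptor *Vipr2* in 69.2% and 0%. The focal adhesion gene *Tns1* was found in 92.3% of somatic-list nuclei at 170.1 CPM and in 5.88% of visceral-list nuclei at 3.33 CPM. *Gfra1*, the GDNF co-receptor, was found in 84.6% of somatic-list nuclei at 223 CPM and had no UMI in visceral-list nuclei. Somatic-list nuclei also held more of the heavy neurofilament gene *Nefh* (121 against 15.0 CPM), the splicing factor *Rbfox3* (212 against 46.6 CPM) and the muscarinic receptor *Chrm2* (563 against 81.5 CPM).

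Visceral-list nuclei held the neuropeptide genes *Adcyap1*, which encodes PACAP, in 58.8% and *Gal*, galanin, in 58.8%, against 15.4% of somatic-list nuclei for each. *Nos1*, the neuronal nitric oxide synthase, was found in 38.2% and 7.69%. *Ddc*, the decarboxylase of monoamine synthesis, was found in 52.9% and 15.4%. Of acetylcholine receptors, *Chrm3* was found in 50.0% of visceral-list nuclei, *Chrna3* in 44.1%, *Chrna5* in 17.6% and *Chrnb4* in 20.6%. *Chrm3* and *Chrnb4* had no UMI in the 13 somatic-list nuclei, and *Chrna3* and *Chrna5* were each found in 1 of them. By counting error alone, 0 of 13 somatic-list nuclei allows a share with a UMI of up to 23.1% and 0 of 34 visceral-list nuclei of up to 8.82%, which limits detection and not expression. *Gap43* was at 482 CPM in visceral-list and 75.6 CPM in somatic-list nuclei. *Prph*, *Slc5a7* and *Chat* were found in 85.3%, 88.2% and 76.5% of visceral-list and 92.3%, 100% and 92.3% of somatic-list nuclei.

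**Figure D2:**
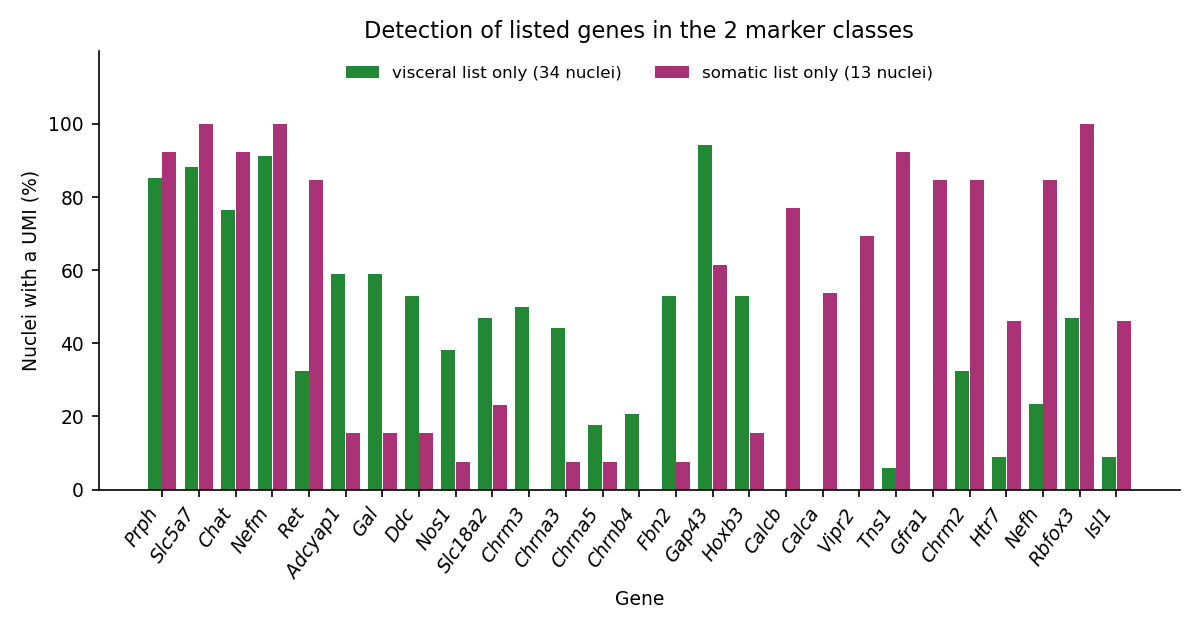
Share of nuclei with a UMI (vertical axis, %) of listed genes in visceral-list (34 nuclei) and somatic-list (13 nuclei) nuclei of the motor neuron cluster. The label markers on the left are found in both classes, *Adcyap1* to *Hoxb3* more often in visceral-list nuclei and *Calcb* to *Isl1* more often in somatic-list nuclei, and the genes were picked for display after their values were seen.

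Pairs of genes were also counted in single nuclei. *Tbx20* was detected in 34 nuclei and *Calcb* in 13, and no nucleus had both. *Calcb* and *Tns1* were found together in 11 nuclei, of 13 and 20, and *Tbx20* and *Tns1* in 4, of 34 and 20. *Tbx20* and *Chrna3* were found together in 16 nuclei, of 34 and 21, whereas *Calcb* and *Chrna3* never were. *Tbx20* and *Gal* shared 20 nuclei, and *Tbx20* and *Nos1* shared 13.

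Nuclei with a visceral-list UMI took different shares of the libraries. They were 3 of 9 (33.3%, exact 95% Clopper-Pearson interval 7.49 to 70.1%) and 3 of 17 (17.6%, 3.80 to 43.4%) in control replicates 1 and 2. They were 12 of 24 (50.0%, 29.1 to 70.9%) and 19 of 32 (59.4%, 40.6 to 76.3%) in AgRP-Gq;POMC-Gi replicates 1 and 2. The library shares did not overlap between groups, whereas their counting intervals did. The means were 25.5 ± 11.1% and 54.7 ± 6.63% (SD, n = 2 libraries each), a difference of 29.2 percentage points. A two-sided exact permutation test gave p = 0.333, the smallest that 2 against 2 libraries allow. This measure was chosen after the data had been seen. The difference kept its direction for *Tbx20* alone (30.6 points). In nuclei with 2 or 3 label markers it was smaller, at 22.5 points, with libraries at 42.9, 21.4, 50.0 and 59.3% in the order above. Thinning to 2000 UMIs kept 7, 17, 24 and 30 nuclei in the same order. In these thinned nuclei both control libraries were at 0%, against 12.5 and 23.3%, so that the direction could not have turned. Median UMIs per nucleus were 12999, 10290, 18243.5 and 12204 in the 4 libraries in the order above. The part of dissection and depth in this difference was not tested. Nuclei with a somatic-list UMI were 44.4, 17.6, 20.8 and 12.5% in the same order, so their shares overlapped between groups.

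**Figure D3:**
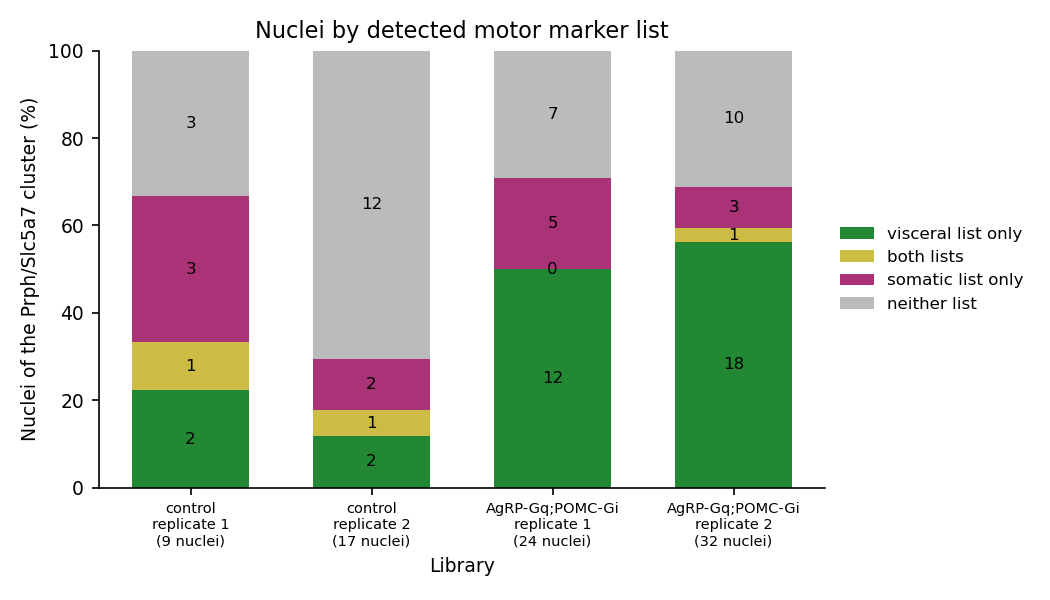
Share of motor neuron cluster nuclei (vertical axis, %) with UMIs of the visceral list, the somatic list, both or neither, for each library (bars), with the number of nuclei printed in each segment. Visceral-list nuclei are 2 of 9 and 2 of 17 in the control libraries and 12 of 24 and 18 of 32 in the AgRP-Gq;POMC-Gi libraries.

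As a share of neurons, the motor neuron cluster was at 0.364% (exact 95% interval 0.167 to 0.691%) and 0.621% (0.362 to 0.993%) in control replicates 1 and 2. It was at 0.649% (0.416 to 0.965%) and 0.880% (0.603 to 1.24%) in AgRP-Gq;POMC-Gi replicates 1 and 2. The group means were 0.493 ± 0.182% and 0.765 ± 0.163% (SD, n = 2 libraries each). Their difference of 0.272 percentage points did not overlap between groups but was close in size to the spread within them, and the exact permutation test again gave p = 0.333. As a share of all kept nuclei the means were 0.131 ± 0.0542% and 0.284 ± 0.0526%, and as a share of the UMIs of all neurons 0.626 ± 0.213% and 1.28 ± 0.0268%. These differences were larger than the spread within groups, and the exact permutation test gave the same p. Neurons as a whole were 25.4 and 27.2% of kept nuclei in control libraries and 38.0 and 36.5% in AgRP-Gq;POMC-Gi libraries. The intervals cover counting error only.

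The comparison of the groups asked which genes of these neurons differed 1 h after CNO. UMIs were summed per library over the motor neuron cluster and tested with edgeR's quasi-likelihood test, adjusted by Benjamini-Hochberg over 12886 genes. The fit had 2 residual degrees of freedom, and the test draws a gene's spread partly from that of other genes. A small p can therefore stand beside libraries of a group that differ widely. At an adjusted p under 0.05, 36 genes (0.279%) differed, 15 higher (0.116%) and 21 lower (0.163%) in AgRP-Gq;POMC-Gi mice. At an unadjusted p under 0.05 there were 968 genes (7.51%), 571 higher (4.43%) and 397 lower (3.08%). The count depended on the fit, with 9 genes called by DESeq2 (5 higher and 4 lower), 20 without TMM factors (5 higher and 15 lower) and 101 with the replicate number as a block. DESeq2 gave an adjusted p to only 10 of the 36 genes and called 8 of these. The median log2 fold change of all genes was 0.07, and -0.07 without TMM factors. In simulated data of this size the test recovered 36% of genes changed by 4-fold and 0% of those changed by 2-fold, so small differences were not detectable at this depth. The simulation drew library sums and not single nuclei, so it did not model sums that come mostly from 1 nucleus.

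Among the genes that were lower, *Zfp804b*, a zinc finger gene (chromosome 5, 6769010 to 7344756, minus strand), had the smallest adjusted p. Control replicates 1 and 2 gave 28 and 114 UMIs, against 8 and 7 UMIs in the AgRP-Gq;POMC-Gi group. The log2 fold change was -4.38 ± 0.45 (SE, edgeR adjusted p = 9.7e-09), and -3.56 without control replicate 2, still past the threshold. Few nuclei carried these counts. In control replicate 1, 23 of the 28 UMIs came from 1 nucleus, and the highest nucleus of control replicate 2 held 50 of 114.

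*Tox*, a nuclear HMG-box gene, had 8 UMIs in control replicate 1, all in 1 nucleus, and 25 in control replicate 2 against 3 and 4 (log2 fold change -3.41 ± 0.57, edgeR adjusted p = 0.0019). Without control replicate 2 it was at -2.83 and no longer passed (edgeR adjusted p = 0.0938). *Asic2*, an acid-sensing cation channel, was at 689 and 619 CPM in control libraries against 134 and 180 CPM (-1.93 ± 0.34, edgeR adjusted p = 0.0022). *Ano4*, an anoctamin, was at 501 and 343 CPM against 95.1 and 106 CPM (-1.92 ± 0.35, edgeR adjusted p = 0.0032). Both control libraries were well above both AgRP-Gq;POMC-Gi libraries for *Asic2* and *Ano4*, and both genes passed without each library in turn. In control replicates 1 and 2, however, 61 of 88 and 63 of 132 *Asic2* UMIs came from 1 nucleus each, and 28 of 64 and 22 of 73 *Ano4* UMIs.

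*Nkain3*, whose product binds the sodium pump, was at 353 and 375 CPM in control libraries against 99.4 and 15.7 CPM (log2 fold change -2.47 ± 0.43, edgeR adjusted p = 0.0022), with 36 of its 45 UMIs of control replicate 1 in 1 nucleus. *Rgs6*, a regulator of G protein signalling, was at 1716 and 507 CPM against 244 and 227 CPM (-2.07 ± 0.39, edgeR adjusted p = 0.0035). In control replicate 1, 153 of its 219 UMIs came from 1 nucleus, and without that library the log2 fold change was -0.97 (edgeR adjusted p = 0.47). *Zfp385b* (-2.07), 6330411D24Rik (-2.07), *Adarb2* (-3.22), *Tmem132c* (-3.64) and *Aox1*, aldehyde oxidase (-2.90), were also lower. Without AgRP-Gq;POMC-Gi replicate 2, *Nkain3* (-1.64), *Zfp385b* (-1.74), 6330411D24Rik (-1.66), *Tmem132c* (-2.63) and *Aox1* (-2.52) did not pass, and *Aox1* (-2.50) and *Adarb2* (-2.69) did not pass without control replicate 1. *Adarb2* (-2.50) also did not pass without AgRP-Gq;POMC-Gi replicate 1.

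Among the genes that were higher, *Hnf4g*, a nuclear receptor (chromosome 3, 3508030 to 3658052, plus strand), had no UMI in the 340730 UMIs of the control libraries. The AgRP-Gq;POMC-Gi libraries gave 24 and 31 UMIs, from 10 and 13 nuclei (edgeR adjusted p = 0.0022). Against a floor of 3 counts over both control libraries the difference was 6.88-fold, a bound for counting error only and not for the spread between nuclei or libraries. Of its 55 UMIs, 37 were in visceral-list nuclei, of which the control libraries held 4. *Bmpr1b*, a type I receptor of bone morphogenetic proteins, was at 23.5 and 18.8 CPM in control libraries against 49.7 and 285 CPM (log2 fold change 3.08 ± 0.60, edgeR adjusted p = 0.0056). The *Bmpr1b* log2 fold change was 1.48 (edgeR adjusted p = 0.857) with AgRP-Gq;POMC-Gi replicate 2 left out.

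*Cntn5*, a neuronal adhesion molecule, was at 1175 and 929 CPM in control libraries against 2442 and 3691 CPM (log2 fold change 1.67 ± 0.35, edgeR adjusted p = 0.011). Its highest nucleus held 101 of 150 and 54 of 198 UMIs in control replicates 1 and 2, and 472 of 1130 and 356 of 1644 in the AgRP-Gq;POMC-Gi libraries. *Kcnq5*, a potassium channel of the M-current, was at 188 and 225 against 525 and 687 CPM (1.67 ± 0.35, edgeR adjusted p = 0.013). *Trpm3*, a calcium-permeable cation channel, was at 94.0 and 136 against 447 and 350 CPM (1.91 ± 0.37, edgeR adjusted p = 0.0060). For all 3 genes the groups did not overlap, as for 37.1% of all genes tested (17.3% higher and 19.9% lower). Each lost its call without control replicate 1, with log2 fold changes of 1.84, 1.55 and 1.69. Calls were also lost without control replicate 2 for *Cntn5* (1.51), without AgRP-Gq;POMC-Gi replicate 2 for *Kcnq5* (1.57) and without AgRP-Gq;POMC-Gi replicate 1 for *Trpm3* (1.64).

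*Galnt18*, a glycosyltransferase (2.32), and the non-coding genes 4930509J09Rik (2.13), *Gm20754* (1.93) and *Gm28376* (3.41) were also higher. 4930509J09Rik and *Gm20754* overlap on opposite strands of chromosome 3. In AgRP-Gq;POMC-Gi replicate 1, the highest nucleus held 44 of 98 UMIs of 4930509J09Rik and 49 of 124 of *Gm20754*, and in control replicate 2, 31 of 34 of *Gm20754*. Without control replicate 2, 4930509J09Rik (1.76) and *Galnt18* (1.43) did not pass. Without AgRP-Gq;POMC-Gi replicate 2, *Galnt18* (1.93), *Gm20754* (1.34) and *Gm28376* (2.41) did not pass, and neither did *Gm20754* (1.56) without control replicate 1.

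Beyond these 20 genes of smallest adjusted p, the transcription factor *Tbx20* (chromosome 9, 24718138 to 24774303, minus strand) was higher at 47.5 and 200 CPM against 23.5 and 23.5 CPM (2.47 ± 0.56, edgeR adjusted p = 0.029). Its log2 fold change fell to 1.23 and its call was lost when AgRP-Gq;POMC-Gi replicate 2 was left out (edgeR adjusted p = 0.991). *Tbx20* was among the genes that defined visceral-list nuclei and was found in 32 of the 34. Over all 36 genes, 3 of the lower ones (*Zfp804b*, *Asic2* and *Ano4*) and 1 of the higher ones (*Hnf4g*) passed without each library in turn. Under the stricter expression filter of edgeR *Zfp804b* alone was called, and *Asic2*, *Ano4* and *Hnf4g* had edgeR adjusted p-values of 0.112, 0.125 and 0.151.

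**Figure D4:**
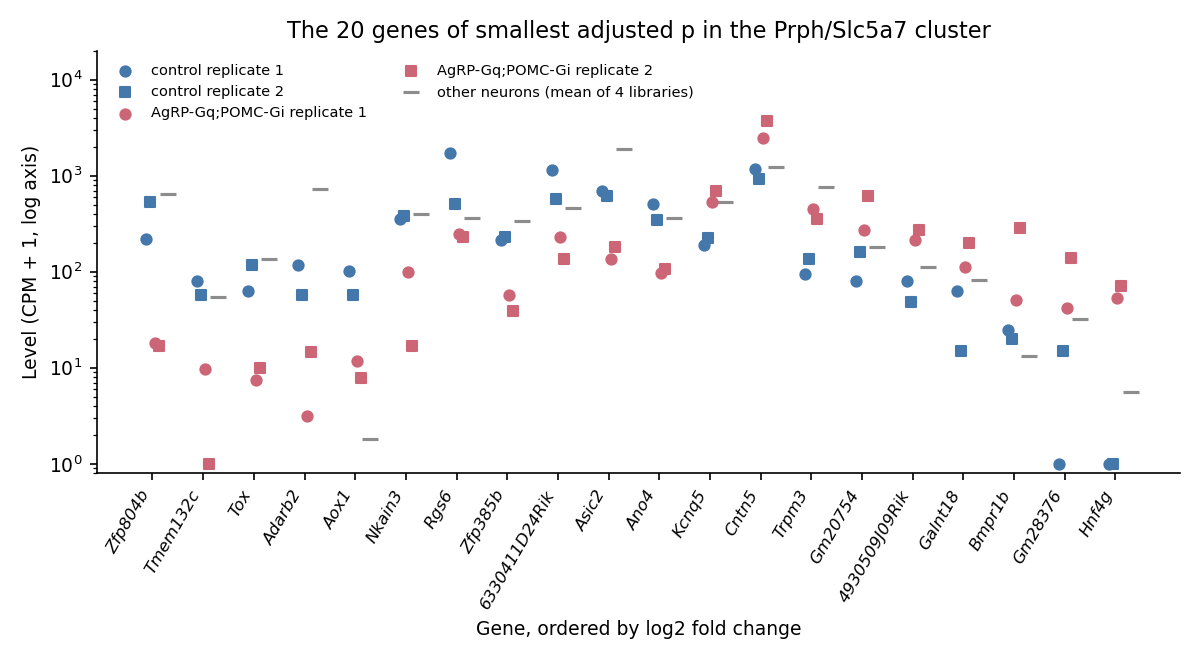
Levels (vertical log axis, CPM + 1) of the 20 genes of smallest adjusted p, ordered by log2 fold change, in the control libraries (blue), the AgRP-Gq;POMC-Gi libraries (red) and other neurons (grey dashes, mean of 4 libraries). For each of the genes the 2 control values lie on 1 side of the 2 AgRP-Gq;POMC-Gi values, with *Zfp804b* at the left and *Hnf4g*, at 0 CPM in both control libraries, at the right.

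The genes that differed between groups also differed between the detection classes. *Tbx20* is left out of these counts, since it defined a class. All 21 lower genes had a higher level in somatic-list than in visceral-list nuclei, and the 14 other higher genes had a lower level. Nuclei with neither or both lists do not enter these levels. For *Zfp804b*, 24 of 28 UMIs in control replicate 1 and 6 of 114 in control replicate 2 were in somatic-list nuclei, with 0 in visceral-list nuclei. In AgRP-Gq;POMC-Gi replicate 1, 7 of its 8 UMIs were in 1 visceral-list nucleus, and in replicate 2, 6 of 7 in 1 somatic-list nucleus. Over all 9628 tested genes with at least 10 UMIs in the 2 classes, 49.2% were higher in somatic-list nuclei. Class and group were not independent, since 30 of 34 visceral-list and 8 of 13 somatic-list nuclei came from AgRP-Gq;POMC-Gi libraries. Genes chosen as lower in that group therefore lean to somatic-list nuclei, so 49.2% is no matched background for this count. Most of the called genes kept their direction within a group. They were called on sums that include the libraries of each group, so the share of all genes is no matched background there either. In the AgRP-Gq;POMC-Gi libraries alone (30 visceral-list and 8 somatic-list nuclei), 16 of 17 lower genes with at least 10 UMIs were higher in somatic-list nuclei and 13 of 14 higher genes were lower, against 49.6% of all genes higher. The exceptions were *Thsd7b*, called lower, at 24.5 CPM in visceral-list and 19.7 CPM in somatic-list nuclei, and 4930509J09Rik, called higher, at 247 and 276 CPM. *Lama2*, called higher, was at 503 CPM in visceral-list and 46.0 CPM in somatic-list nuclei of these libraries, and *Hnf4g* at 69.8 and 39.4 CPM. *Nkain3*, called lower, was at 13.2 and 256 CPM, and *Syt2*, a calcium sensor of transmitter release, at 18.9 and 256 CPM.

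In the control libraries alone (4 visceral-list and 5 somatic-list nuclei), all 20 lower genes with at least 10 UMIs were higher in somatic-list nuclei and all 6 higher genes were lower, against 48.5% of 3694 genes higher. The lower genes were called on high control counts, which often came from few nuclei, so the 2 comparisons share part of those counts. In control replicate 2, 12 of 17 nuclei had neither list. There, 22 of 132 *Asic2* UMIs were in somatic-list and 9 in visceral-list nuclei, and 7 and 6 of 73 *Ano4* UMIs. In control replicate 1, 78 of 88 *Asic2* and 60 of 64 *Ano4* UMIs were in somatic-list nuclei. Visceral-list nuclei were also the larger share of the AgRP-Gq;POMC-Gi libraries, and the part of this share in the group differences was not tested.

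**Figure D5:**
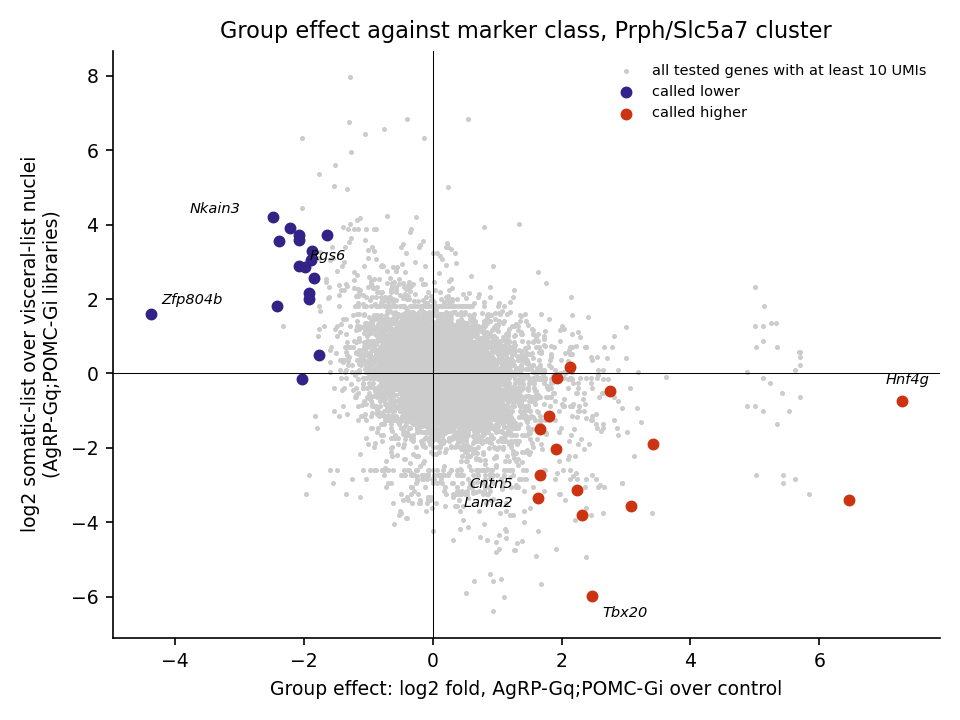
Group effect (horizontal axis, log2 fold change of AgRP-Gq;POMC-Gi over control) against the log2 ratio of somatic-list over visceral-list nuclei within the AgRP-Gq;POMC-Gi libraries (vertical axis, with 0.5 UMI added to each sum) for tested genes of the motor neuron cluster with at least 10 UMIs. Genes called lower (17) lie at the upper left, except *Thsd7b* just below 0, and genes called higher (15) at the lower right, except 4930509J09Rik just above 0. *Tbx20*, the lowest of the genes called higher, defined the visceral-list class, and both axes share the AgRP-Gq;POMC-Gi libraries.

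A fit on visceral-list nuclei alone, chosen after the data had been seen, held 2, 2, 12 and 18 nuclei per library, so the control side rested on 4 nuclei. It called 25 of 13583 genes (0.184%), of which 2 were among the 36. Over all genes its log2 fold changes were shifted upward, with a median of 0.65 and 70.1% above 0. Of the 18 lower genes it tested 11 were above 0 and 7 below, and the 14 higher genes other than *Tbx20*, which defined these nuclei, were all above 0. *Bmpr1b* passed in both fits, with 0, 0, 18 and 124 UMIs in the visceral-list nuclei of control replicates 1 and 2 and the AgRP-Gq;POMC-Gi libraries. *Rgs6* passed with the opposite sign, all of its 61 UMIs in AgRP-Gq;POMC-Gi replicate 2. *Zfp804b*, with 7 UMIs in 1 visceral-list nucleus, was under the detection filter and was not tested there, nor were *Tmem132c* and *Aox1*, which had no UMI. The log2 fold change of *Asic2* was -0.11 and that of *Ano4* -0.48, with edgeR adjusted p of 0.957 and 0.838.

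The group effect of the motor neuron cluster was also set against that of all other neurons of the same libraries in an interaction test. It differed for 8 of 12886 genes (0.0621%), with 878 (6.81%) at an unadjusted p under 0.05. *Zfp804b* (difference of log2 fold changes -4.45 ± 0.47, edgeR adjusted p = 1.2e-04), *Tox* (-3.50 ± 0.55), *Asic2* (-1.94 ± 0.32), *Ano4* (-2.0 ± 0.33), 6330411D24Rik (-2.07 ± 0.35), *Zfp385b* (-2.06 ± 0.36) and *Nkain3* (-2.70 ± 0.49) were lower in the motor neuron cluster, and 4930509J09Rik (2.01 ± 0.37) was higher, the last 7 at edgeR adjusted p-values of 0.0219 to 0.0477. All 8 were among the 36 genes called within the cluster. The mean in other neurons was 645 CPM for *Zfp804b*, 133 for *Tox*, 1904 for *Asic2* and 363 for *Ano4*. It was 459 CPM for 6330411D24Rik, 333 for *Zfp385b*, 400 for *Nkain3* and 110 for 4930509J09Rik. Both control libraries of the motor neuron cluster were below this mean for *Zfp804b*, *Tox*, *Asic2*, *Zfp385b*, *Nkain3* and 4930509J09Rik. For 6330411D24Rik both were above it, and for *Ano4* they lay on either side.

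Of the gene lists, few members passed the group test, as of all genes tested (0.279%). In the visceral motor list 1 of 6 tested genes was called (*Tbx20*, higher), and in the list of excitability channels 1 of 31 (*Kcnq5*, higher). No member was called among 8 cholinergic genes, 6 motor neuron transcription factors, 11 somatic motor genes, 12 cytoskeleton and axon genes, 8 genes of other transmitters, 14 neuropeptides, 12 neurotrophic factor receptors, 8 acetylcholine receptors, 12 amine and glycine receptors, 14 receptors of feeding signals, 8 Hox genes and 10 injury and stress genes. Over lists with 5 or more tested genes the median log2 fold change ran from -0.84 for motor neuron transcription factors and -0.75 for the somatic list to 1.21 for the visceral list and 1.28 for Hox genes, against 0.07 for all genes. The summed Hox level was 78.3 and 127 CPM in the control libraries against 117 and 314 CPM, so AgRP-Gq;POMC-Gi replicate 2 alone stood apart, as it did in other neurons (342 CPM against 217 to 240 CPM). *Prph* (0.23 ± 0.34), *Slc5a7* (0.19 ± 0.34) and *Chat* (-0.34 ± 0.35) had edgeR adjusted p-values of 0.955, 0.957 and 0.921.

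Genes that missed the threshold included several of those that differed between the classes. *Vipr2* was at 86.2, 23.5, 4.32 and 8.98 CPM in control replicates 1 and 2 and AgRP-Gq;POMC-Gi replicates 1 and 2 (log2 fold change -2.69 ± 0.73, edgeR adjusted p = 0.0897). *Bcl6*, which was among the genes that defined somatic-list nuclei, was at 47.0, 32.8, 6.48 and 4.49 CPM (-2.59 ± 0.78, edgeR adjusted p = 0.168). *Gal* was at 15.7, 32.8, 38.9 and 153 CPM (1.96 ± 0.56, edgeR adjusted p = 0.134), so AgRP-Gq;POMC-Gi replicate 2 alone was far above the rest. *Adcyap1* was at 7.83, 32.8, 62.7 and 80.8 CPM (1.75 ± 0.54, edgeR adjusted p = 0.194). *Agrp* itself was at 85.7 ± 11.0 CPM in the motor neuron cluster and 88.0 ± 3.86 CPM in other neurons, so the cluster had no excess of it. The annotated *Agrp* gene (chromosome 8, 105566698 to 105637393, minus strand) overlaps *Gm45855* and *Gm5914* on the same strand, so these UMIs may not all be of *Agrp* mRNA.

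Immediate early genes, which are transcribed within minutes of neuronal activity, were examined because the study used 10 of them to rank clusters. Of the 10, 6 were detected often enough to be tested and none was called by edgeR, against 0.279% of all genes, so no call is what such a share gives in a list of this size. DESeq2 called none either, but it left genes without an adjusted p, so its share of genes called has no clear base. *Homer1*, a synaptic scaffold gene, was at 102, 61.0, 51.9 and 47.1 CPM in control replicates 1 and 2 and AgRP-Gq;POMC-Gi replicates 1 and 2. *Gem*, a small GTPase, was at 118, 28.2, 49.7 and 18.0 CPM, and *Jun* at 31.3, 32.8, 15.1 and 13.5 CPM. For *Homer1* and *Jun* the control libraries were above the others, as for 19.9% of all genes tested, and for *Gem* the groups overlapped. For 2 of the 6 genes, 1700016P03Rik among them, the control libraries were below the others, as for 17.3% of all genes tested.

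1700016P03Rik was at 0, 9.39, 54.0 and 18.0 CPM and was the only 1 of the 6 at an unadjusted p under 0.05 (log2 fold change 2.71 ± 0.89, edgeR adjusted p = 0.254). *Fos* had a UMI in 4.88% of nuclei and was not tested. A mixed model of single nuclei, negative binomial with a random term for the library, also called none of the 6 after adjustment.

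Signs of RNA from other cells were measured in the same libraries. *Ttr*, made by the choroid plexus, was at 948 and 543 CPM in replicate 2 of each group and at no more than 6.48 CPM in replicate 1 of each, and other neurons had similar levels. Over 10 oligodendrocyte markers the summed level in the motor neuron cluster was 115 to 305 CPM, over 7 astrocyte markers 31.3 to 178 CPM, over 6 immune markers 77.8 to 219 CPM, over 7 vascular markers 7.83 to 127 CPM, over 5 ependymal and choroid plexus markers, *Ttr* included, 7.83 to 953 CPM and over 5 precursor markers 6.48 to 23.5 CPM. Only 17 of these 40 markers were detected often enough to be tested between groups, and none was called, against 0.279% of all genes. *Mrc1* of the immune list and *C1ql1* of the precursor list were at 0 in the motor neuron cluster.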

How the data were processed

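Nuclei were sorted on DRAQ5 and sequenced with 10x Genomics 3′ chemistry. The authors made the deposited UMI count matrices with Cell Ranger 7.0.0 on GRCm38 (mm10) and filtered nuclei with Seurat 4.3.0 (at least 800 UMIs, at least 500 genes, at most 10% mitochondrial UMIs, a deposited percent), with doublets detected at an assumed rate of 0.02. The authors' deposited table gave each nucleus its cluster and cell type. The members and the gene lists were chosen with earlier results of these data known. A gene of the visceral motor list is not reported here and was left out of that list and of the detection classes.

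UMIs were summed per library over the motor neuron cluster and, for the interaction, over all other neurons, with library as a block. edgeR 4.0.16 (R 4.3.3) quasi-likelihood tests with TMM factors covered genes detected in 5% or more of the cluster's nuclei, 2 against 2 libraries, adjusted by Benjamini-Hochberg at 0.05. Fold changes are log2 with SE. The SE is the size of the log2 fold change divided by the square root of the F statistic of its test. DESeq2 1.42.0, glmmTMB 1.1.9, other filters, the block, left-out libraries and subsets of nuclei were alternatives. CPM is UMIs per 1e6 UMIs of the cluster in a library. Floors are 3 counts. Named genes were list genes the results turn on, the 20 of smallest adjusted p, the 25 of largest ratio to other neurons and all genes of the interaction. Other genes named are *Tbx20*, *Lama2*, *Syt2* and *Thsd7b* of the 36, chosen after their values were seen. Gene positions came from GENCODE vM21 and the group test was checked on simulated library sums. Python 3.11.15, numpy 2.4.6, pandas 2.3.3, scipy 1.17.1 and matplotlib 3.10.9 were used. Kept UMIs were 48904976 to 53089402 per library.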

Additional observations from a re-analysis of the deposited data

Results flagged for a closer look

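The group effect differed between the motor neuron cluster and the other neurons of the same libraries for 8 genes in the interaction test of edgeR. The differences of log2 fold changes, the motor neuron cluster minus other neurons, were -4.45 for *Zfp804b*, -3.50 for *Tox*, -1.94 for *Asic2*, -2.0 for *Ano4*, -2.07 for 6330411D24Rik, -2.06 for *Zfp385b*, -2.70 for *Nkain3* and 2.01 for 4930509J09Rik. Without control replicate 2, *Tox* (-2.87), *Zfp385b* (-1.95), *Nkain3* (-2.62) and 4930509J09Rik (1.68) no longer passed. Without control replicate 1, *Ano4* (-1.74), 6330411D24Rik (-1.60), *Nkain3* (-2.73) and 4930509J09Rik (2.31) did not pass. Without AgRP-Gq;POMC-Gi replicate 2, *Zfp385b* (-1.85), *Nkain3* (-1.80) and 4930509J09Rik (1.88) did not pass. *Zfp804b* and *Asic2* passed in each of the 4 fits that left out a library.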

How the results depend on the processing

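The count of genes called between groups moved from 36 to 20 without TMM factors, 9 with DESeq2, 103 with no filter on genes, 1 (*Zfp804b*) with edgeR's own filter, 101 with the replicate block, 25 in visceral-list nuclei alone (2 of them among the 36) and 56 in nuclei with 2 or 3 label markers, and ranged from 28 to 145 with 1 library left out. The causes were not tested. All 36 genes were also called with no filter and with the block, 31 in nuclei with 2 or 3 label markers and 20 without TMM factors. DESeq2 called 8 of the 36 and gave an adjusted p to only 10 of them. The count for the interaction moved from 8 to 18 with DESeq2, 72 with no filter and 68 with the replicate block, and ranged from 8 to 46 with 1 library left out. In visceral-list nuclei alone, where the median of all genes was 0.65, the sign turned for 11 of the 18 lower genes tested. Among the 20 of smallest adjusted p these were 6330411D24Rik (2.17), *Tox* (3.01), *Nkain3* (4.16), *Zfp385b* (4.15), *Rgs6* (7.06) and *Adarb2* (3.38), the last 5 with no UMI in the visceral-list nuclei of control libraries, so that their fitted values are no bound. The labels do not say what the replicate numbers share, so the block is not taken as a paired design. Deviations of same-numbered libraries correlated at 0.053 across genes. With so few nuclei in a library, this value does not decide whether they share a factor, and *Ttr* levels followed the replicate number in both groups. No immediate early gene was called under any alternative run, and the marker ranks and both shares kept their order or direction, which with thinned nuclei the visceral-list share had to, its control libraries being at 0%. With 9 nuclei in the smallest library and 2 libraries a group, differences of 2-fold were below what the test could detect in simulated library sums.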
